A study of Mus musculus with 7 samples.

Results

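The Hox genes of paralog groups 4 and 5 were followed in neural crest cells (NCCs) and neural tube cells of control and Tbx1 null mouse embryos. The members are taken by symbol: Hoxa4, Hoxb4, Hoxc4 and Hoxd4 of group 4 and Hoxa5, Hoxb5 and Hoxc5 of group 5, which are 7 of the 32285 genes counted. The data are 7 libraries of droplet single-cell RNA sequencing, which counts unique molecular identifiers (UMIs) from the 3′ end of transcripts. Each library was a pool of embryos of the strain given as Swiss-Webster, which the study's methods call a mixed Swiss-Webster background. The 4 control libraries (Wnt1-Cre/+;ROSA-EGFPf/+) came from embryonic day (E) 8.5, E9.5 and E10.5, with replicates 1 and 2 at E10.5. The 3 null libraries came from E9.5 and E10.5, again with replicates 1 and 2 at the later stage. Their sample titles say Tbx1null while the genotype field reads Wnt1-Cre/+;Tbx1+/-;ROSA-EGFPf/+. The study's supplement lists all 3 as Wnt1-Cre/+;Tbx1-/-;ROSA-EGFPf/+ and the study calls them Tbx1 null, so the word null is used here. Every embryo, controls included, carried the Wnt1-Cre driver and the EGFP reporter, and viable EGFP-positive cells were sorted. Wnt1-Cre acts in premigratory crest and in the dorsal neural tube, so both lineages were in the sort. The tissue was the front part of the embryo at E8.5 and the pharyngeal apparatus plus heart at E9.5. At E10.5 it was arches 2 to 6 with heart in controls and the tissue below arch 1 with heart in null embryos, and the study's methods give 1 dissection for both genotypes, without head and arch 1. From E9.5 on the dissected piece also held neural tube.

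Hox genes encode homeodomain transcription factors that give cells their position along the body axis. The genes of a cluster are activated in order from the front of the body to the rear, first those of low group number, and retinoic acid signalling is a known activator of the genes at that end of each cluster. Groups 4 and 5 have their front border in the caudal hindbrain, and NCCs carry part of the Hox code of their origin into the caudal pharyngeal arches, the outflow tract and the gut. Hoxa4, Hoxb4 and Hoxd4 act in patterning of the cervical vertebrae and caudal hindbrain. Hoxc4 and Hoxc5 lie next to each other in the C cluster, and Hoxc5 acts with Hoxa5 in motor neurons of the phrenic nerve. Hoxa5 is needed for the trachea and lung and for the skeleton at the neck to thorax transition, and Hoxb5 acts in enteric and trunk crest. The mouse has no Hoxd5, so group 5 holds 3 genes.

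In mm10 the pair of the A cluster lies on the minus strand of chromosome 6, Hoxa4 (ENSMUSG00000000942) at chr6:52189671-52191753 and Hoxa5 (ENSMUSG00000038253) at chr6:52201754-52204587. The B cluster pair is on the plus strand of chromosome 11, Hoxb4 (ENSMUSG00000038692) at chr11:96318267-96321638 and Hoxb5 (ENSMUSG00000038700) at chr11:96303336-96306121. The C cluster pair is on the plus strand of chromosome 15, Hoxc4 (ENSMUSG00000075394) at chr15:103018934-103036852 and Hoxc5 (ENSMUSG00000022485) at chr15:102967443-103017429. Hoxd4 (ENSMUSG00000101174) is on the plus strand of chromosome 2 at chr2:74711929-74729160. All 7 are annotated as protein coding in GENCODE M21. Some exonic bases are shared with a neighbour on the same strand, 13.2% for Hoxd4 with Hoxd3 and 5.37% for Hoxc5 with Hoxc10, and none of these lie in the last 500 bases, from which the tags are read. Gm28230, which is not among the genes counted, shares 39.1% of the exonic bases of Hoxd4 on the same strand, with 22 of them in the last 500. On the opposite strand the antisense gene Gm29430 covers 255 of the last 500 bases of Hoxa4.

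Promoter sequences are shown because members of both groups were high in the same cells, and because retinoic acid response elements are known near several Hox genes. RefSeq (GRCm38.p6) gave the 250 bases before the start for 4 of the 7 members, Hoxb4, Hoxc4, Hoxd4 and Hoxa5, and none for Hoxa4, Hoxb5 and Hoxc5. Capitals mark AGGTCA, the retinoic acid receptor half-site, here read as TGACCT because it lies on the other strand, and TTTATG, the Cdx motif. The windows are chr11:96318017-96318266 (plus) for Hoxb4, chr2:74721728-74721977 (plus) for Hoxd4 and chr6:52204588-52204837 (minus) for Hoxa5.
Hoxb4: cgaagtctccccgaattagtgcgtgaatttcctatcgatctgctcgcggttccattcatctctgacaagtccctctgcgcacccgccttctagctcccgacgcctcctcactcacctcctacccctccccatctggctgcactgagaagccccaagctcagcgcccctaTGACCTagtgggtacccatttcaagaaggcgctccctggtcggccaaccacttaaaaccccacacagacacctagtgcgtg
Hoxd4: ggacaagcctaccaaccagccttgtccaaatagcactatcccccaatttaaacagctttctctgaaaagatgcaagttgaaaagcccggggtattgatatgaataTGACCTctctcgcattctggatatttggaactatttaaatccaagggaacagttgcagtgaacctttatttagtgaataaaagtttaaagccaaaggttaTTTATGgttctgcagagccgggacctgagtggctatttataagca
Hoxa5: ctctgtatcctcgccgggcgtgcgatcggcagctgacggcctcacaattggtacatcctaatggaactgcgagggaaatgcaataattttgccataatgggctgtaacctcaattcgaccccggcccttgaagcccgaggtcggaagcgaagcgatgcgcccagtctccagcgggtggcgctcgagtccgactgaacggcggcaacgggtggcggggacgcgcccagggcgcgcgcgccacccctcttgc
AGGTCA was found on the minus strand relative to the gene at bases -81 to -76 of Hoxb4 and -145 to -140 of Hoxd4. It was also found at -146 to -141 of Hoxc4, whose window (chr15:103034145-103034394, plus) lies in a UTR exon of another Hoxc4 transcript and is not printed. The same letters, on either strand, occur in 13.8% of 27025 RefSeq promoters of the same length. TTTATG was found in Hoxd4 only, at -45 to -40, and occurs in 11.1% of promoters. The Hox-Pbx motif TGATNNAT (7.91% of promoters) and the Meis motif TGACAG (15.97%), searched on both strands, had no match in the 4 windows, and Hoxa5 held none of the 4 motifs. No match overlapped another. These matches describe letters, not sites of binding.

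Cells were assigned by fixed UMI rules that use none of the members. Mesenchymal cells had at least 2 UMIs of Twist1, Prrx1 and Prrx2 together, transcription factors of crest mesenchyme. Foxf1 cells had at least 1 UMI of Foxf1, a forkhead factor of splanchnic and outflow mesenchyme, and Sox10 cells at least 2 UMIs of Sox10, the factor of migrating and glial crest. Neural cells had at least 1 UMI of Sox2 and none of Twist1. The libraries held 140264662 to 234844769 UMIs, and 5587 to 9555 cells per library were kept, with medians of 14795.5 to 22878 UMIs per cell. Any pair of libraries shared at most 0.410% of the barcodes of the smaller one. Tbx1 is scarcely expressed in NCCs and does not check the labels: its counts-per-million (CPM) level was 0.446 and 0.681 in control libraries at E8.5 and E9.5, 4.99 and 3.98 in control replicates 1 and 2 at E10.5, 0.629 in the null library at E9.5, and 2.95 and 2.70 in the null replicates at E10.5.

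The gates were checked against markers that were not used for gating. In E10.5 libraries the 6 mesenchymal markers summed to 383 to 474 CPM in mesenchymal cells and 31.0 to 122 CPM in neural cells. The 5 neural progenitor markers gave 842 to 1573 CPM in neural cells. At that stage neuron markers were above them in neural cells of control replicate 2 (897 against 842 CPM) and of null replicate 2 (1635 against 860 CPM). In some sums the markers of another cell type were the higher ones. Mesenchymal cells of null replicate 2 at E10.5 had neuron markers at 832 CPM against 444 CPM of mesenchymal markers. Sox10 cells of that library had neuron markers at 658 CPM against 530 CPM of glial crest markers, and mesenchymal cells at E8.5 had 175 CPM of migrating crest against 62.4 CPM of mesenchymal markers. The gate names therefore stand for the UMI rules only. The 13 Foxf1 cells at E8.5 had all 6 outflow mesenchyme markers at 0 and are left out below, except in the correlations over all gate sums. Cells can pass several gates. At E10.5, 8.29% and 1.20% of mesenchymal cells also passed the neural gate in control replicates 1 and 2, and 17.1% and 23.9% in null replicates 1 and 2. At the same stage neural cells made up 40.9% and 15.1% of kept cells in the controls and 52.1% and 54.2% in the null libraries.

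In control embryos all 7 members were low at E8.5, higher at E9.5 and highest at E10.5, in neural and in mesenchymal cells. Hoxb4, which also has a long record in blood stem cells, had an E8.5 level of 0.837 CPM in neural cells, an E9.5 level of 39.6 CPM, and levels of 117 and 112 CPM in replicates 1 and 2 of E10.5. In mesenchymal cells of the same libraries Hoxb4 was at 0.611, 9.76, 21.9 and 18.0 CPM. Hoxd4 stood at 1.46, 54.7, 163 and 86.1 CPM in neural cells and at 0.557, 12.7, 40.4 and 24.5 CPM in mesenchymal cells. Both group 4 genes were thus counted at every stage, and the neural level was above the mesenchymal level in each control library. Hoxa4 was at 0.0697, 9.36, 52.7 and 31.2 CPM in neural cells and 0.0136, 0.836, 9.24 and 4.63 CPM in mesenchymal cells. Hoxc4 was at 0.325, 15.6, 52.8 and 40.4 CPM in neural cells and 0.0815, 2.09, 7.58 and 6.98 CPM in mesenchymal cells. The order E8.5, E9.5, E10.5 held in each case, and the replicates at E10.5 differed by up to 1.99-fold (Hoxa4, mesenchymal cells). No stage comparison was tested, since E8.5 and E9.5 have 1 control library each, the dissected tissue differs between stages and the kit version at E8.5 was 2 against 3.1.

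The group 5 genes were low until E9.5 and gained most of their level between E9.5 and E10.5. In neural cells Hoxa5 had an E8.5 level of 0.0697 CPM, an E9.5 level of 4.08 CPM, and levels of 66.2 and 47.6 CPM in the E10.5 replicates. Hoxb5 was at 0.0465, 2.82, 21.9 and 32.4 CPM and Hoxc5 at 0.0465, 2.11, 24.9 and 13.4 CPM in these libraries. In mesenchymal cells of the E9.5 control library the group 5 genes had 0.497, 0.392 and 0.0753 CPM in the order Hoxa5, Hoxb5, Hoxc5. The mean of the E10.5 controls over the E9.5 control was 9.09-fold to 14.0-fold for the 3 group 5 genes and 2.27-fold to 4.48-fold for the 4 group 4 genes in neural cells. In mesenchymal cells these ratios were 11.98-fold for Hoxa5 and 9.24-fold for Hoxb5, and 2.04-fold to 8.29-fold for group 4. Hoxc5 is left out there because the E9.5 control held 10 of its UMIs. The order of the groups did not hold in each library, since Hoxa4 was 11.05-fold above E9.5 in replicate 1 and Hoxb5 8.51-fold. In mesenchymal, Sox10 and neural cells alike all 7 members were higher at E9.5 than at E8.5 and higher in both E10.5 libraries than at E9.5, a pattern shown by 45.9% of genes tested in mesenchymal cells, 45.3% in Sox10 cells and 40.4% in neural cells.

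**Figure D1:**
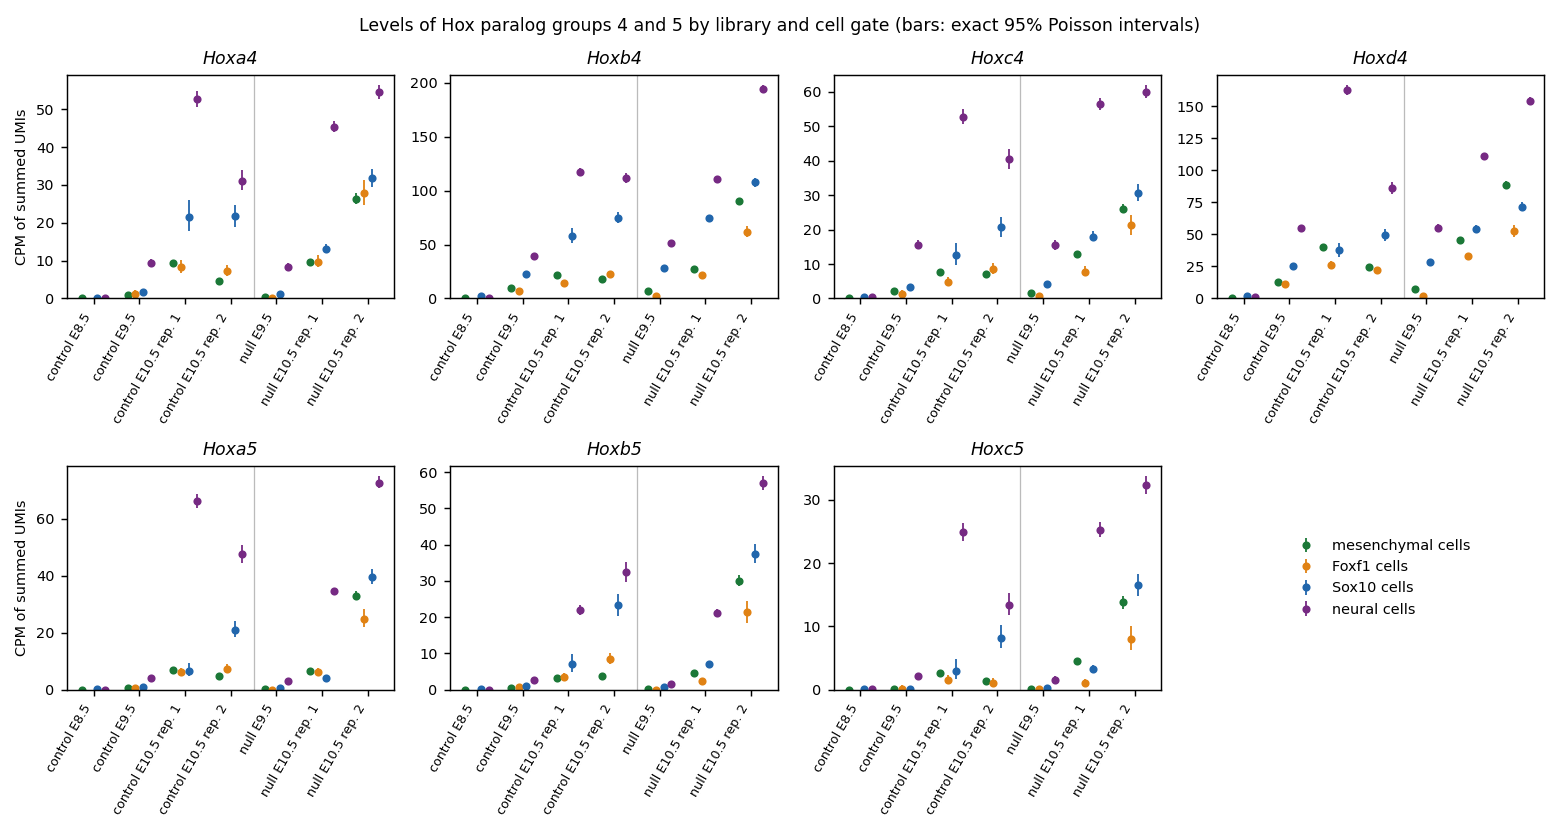
Level of each member (CPM of UMIs summed over the cells of a gate, vertical axis, linear and scaled per gene) in the 7 libraries, controls left and null libraries right of the line. Points are libraries, colours are gates and bars are exact 95% Poisson intervals (counting error only). Neural cells are the highest of the 4 gates in every library from E9.5 on. Null replicate 2 at E10.5 holds the highest mesenchymal level of all 7 genes, and the share of all genes highest there was not computed.

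Neural cells of control embryos at E10.5 had higher levels of all 7 members than mesenchymal cells. With cells of both gates left out and the library as a block, the log2 difference was 2.79 ± 0.26 (SE) for Hoxb4, 2.06 ± 0.19 for Hoxd4, 2.94 ± 0.33 for Hoxa4 and 2.96 ± 0.35 for Hoxc4. It was 3.67 ± 0.42 for Hoxa5, 3.20 ± 0.40 for Hoxb5 and 3.84 ± 0.47 for Hoxc5. Adjusted p lay between 0.000567 and 0.00174 (edgeR quasi-likelihood test, Benjamini-Hochberg over 16370 genes), and all 7 of 7 were called higher in neural cells, against 15.4% of all genes tested. Without control replicate 1, which leaves 1 control library, 4 of the 7 were called, against 7.27% of all genes. Among cells with a UMI of Hoxa3, Hoxb3 or Hoxd3, the median of the differences was 1.65 against 2.96 in all cells, and 6 of the 7 were called (17.2% of all genes), with Hoxd4 at 0.71. Since the library is a block, the p-values measure how the difference between the gates varies among libraries of the same genotype. The null libraries enter this spread as well as the controls. Each library is a pool of embryos. The summed level of a gate does not tell more positive cells from more UMIs per positive cell; shares of cells are given further on.

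Sox10 cells lay between neural and mesenchymal cells in the summed level of the members in the E10.5 controls, and the levels of Foxf1 and mesenchymal cells overlapped. Hoxb4 was at 58.2 and 75.0 CPM in Sox10 cells and at 14.1 and 22.5 CPM in Foxf1 cells of replicates 1 and 2. Hoxd4 was at 37.5 and 49.4 CPM in Sox10 cells and at 26.4 and 22.1 CPM in Foxf1 cells. Hoxb5 was at 7.15 and 23.3 CPM in Sox10 cells, so its replicates in that gate stood further apart than in any other control gate. Both neural sums were above both Sox10 sums for 6 of 7 members (24.6% of genes tested in both gates), with Hoxb5 as the exception. Both Sox10 sums were above both mesenchymal sums for 5 of 7 (29.6%), and the libraries overlapped for Hoxd4 and Hoxa5. Both mesenchymal sums were above both Foxf1 sums for 0 of 7 (13.2%), and for each member the ranges of these gates overlapped. Of Sox10 cells at E10.5, 54.5% to 65.3% also passed the neural gate, and 85.6% to 96.5% of Foxf1 cells were also mesenchymal cells, so these sums are not independent.

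At E9.5 the null library had lower levels of the members in mesenchymal cells, while in neural and Sox10 cells the members went both ways. In mesenchymal cells Hoxd4 was at 12.7 CPM in the control and 7.43 CPM in the null library, a log2 ratio of -0.78 (95% counting interval -0.89 to -0.67). Hoxb4 was at 9.76 and 7.17 CPM (-0.45, -0.56 to -0.33) and Hoxa4 at 0.836 and 0.431 CPM (-0.95, -1.41 to -0.51). The null value was the lower one in each case. Hoxc4 was at 2.09 and 1.58 CPM (-0.40, -0.65 to -0.15). Among group 5, Hoxa5 was at 0.497 and 0.20 CPM (-1.30, -1.97 to -0.68) and Hoxb5 at 0.392 and 0.144 CPM (-1.43, -2.22 to -0.71). Hoxc5 had 10 UMIs in each library, too few for a ratio. Of the 6 members with at least 50 UMIs, 4 were more than 1.5-fold lower in the null library (Hoxa4, Hoxd4, Hoxa5, Hoxb5), as were 3.82% of 14023 genes. With 1 library per genotype and kit version 3 in the null against 3.1 in the control, this has no replicate check.

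In Foxf1 cells at E9.5 the members with enough UMIs were lower by more. Hoxd4 was at 11.2 CPM in 285 control cells and 2.07 CPM in 556 null cells, a log2 ratio of -2.42 (-3.09 to -1.81). Hoxb4 was at 6.61 and 2.36 CPM (-1.48, -2.16 to -0.83). Both of the 2 members that could be compared were thus more than 1.5-fold lower, against 3.24% of genes. Hoxb5 had 6 UMIs in the control and 0 in the null library, which allows up to 0.214 CPM.

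In neural and Sox10 cells at E9.5 Hoxb4 was higher in the null library, Hoxc4 and Hoxd4 were close in neural cells, and the group 5 genes were lower in neural cells. In neural cells Hoxd4 was at 54.7 CPM in the control and 55.3 CPM in the null library (log2 ratio 0.02, -0.08 to 0.11), and Hoxc4 at 15.6 and 15.5 CPM (-0.01, -0.19 to 0.17). Hoxb4 was at 39.6 and 51.8 CPM (0.39, 0.28 to 0.49) in neural cells and at 22.9 and 28.1 CPM (0.30, 0.15 to 0.45) in Sox10 cells. Hoxb4 was thus the higher of the pair in null neural and Sox10 cells and the lower in null mesenchymal cells. Hoxb5 was at 2.82 and 1.5 CPM (-0.91, -1.45 to -0.40) in neural cells and was the 1 member of 7 there more than 1.5-fold lower (3.75% of genes). Hoxa5 was at 4.08 and 2.93 CPM (-0.48, -0.87 to -0.09) and Hoxc5 at 2.11 and 1.59 CPM (-0.40, -0.95 to 0.13) in neural cells. Hoxa4 was at 9.36 and 8.20 CPM (-0.19, -0.43 to 0.05). All 3 group 5 genes and Hoxa4 thus had the lower value in null neural cells, the side they took in mesenchymal cells where they could be compared. In Sox10 cells Hoxa4 was at 1.62 and 1.18 CPM (-0.44, -1.13 to 0.21) and Hoxa5 at 0.976 and 0.776 CPM (-0.32, -1.20 to 0.51). Hoxd4 was at 25.1 and 28.05 CPM (0.16, 0.02 to 0.31) and Hoxc4 at 3.45 and 4.29 CPM (0.31, -0.07 to 0.70). None of the 6 members that could be compared in Sox10 cells was more than 1.5-fold lower (3.22% of genes). Differences between classes at E9.5 were not tested.

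At E10.5 the mesenchymal cells of both null libraries had higher levels than those of both control libraries for 6 of the 7 members, but no member passed the test. Hoxb4 was at 21.9 and 18.0 CPM in control replicates 1 and 2 and at 27.3 and 90.4 CPM in null replicates 1 and 2. Hoxd4 was at 40.4 and 24.5 CPM against 45.6 and 88.7 CPM, and Hoxc4 at 7.58 and 6.98 against 12.9 and 26.1 CPM. In each of these genes null replicate 1 lay above the controls and null replicate 2 further above. Hoxa4 was at 9.24 and 4.63 CPM in the controls and 9.72 and 26.3 CPM in the null libraries. Hoxb5 was at 3.34 and 3.90 CPM against 4.59 and 30.1 CPM, and Hoxc5 at 2.60 and 1.37 against 4.53 and 13.8 CPM. Hoxa5 was the exception, with 6.99 and 4.92 CPM in the controls and 6.70 and 33.0 CPM in the null libraries, which overlap. The 6 of 7 members without overlap stand beside 36.8% of all genes tested whose null libraries were both above both controls.

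The log2 fold change in mesenchymal cells was 1.15 ± 0.48 (SE) for Hoxa4, 1.33 ± 0.47 for Hoxb4, 1.20 ± 0.31 for Hoxc4 and 0.84 ± 0.34 for Hoxd4. It was 1.49 ± 0.62 for Hoxa5, 2.00 ± 0.72 for Hoxb5 and 1.98 ± 0.53 for Hoxc5. The median was 1.33, beside -0.02 over all genes tested. Adjusted p lay between 0.231 and 0.333 (edgeR quasi-likelihood test over 15892 genes), so 0 of 7 were called, with 0.101% of all genes called. Unadjusted, 6 of 7 had p under 0.05, as did 2397 of the 15892 genes. DESeq2 called 2 of the 7, Hoxc4 and Hoxc5, with 4.61% of all genes called, and edgeR with no filter on low counts called 7, with 6.31% of all genes. Without null replicate 1, 5 of the 7 were called (3.6% of all genes) and the median was 1.94, while without null replicate 2 none were and the median was 0.41.

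The difference was largest in null replicate 2. Over the mean of the controls, null replicate 2 had 2.74-fold to 4.53-fold more of the group 4 genes in mesenchymal cells and 5.54-fold to 8.31-fold more of the group 5 genes. Null replicate 1 had 1.13-fold to 2.28-fold the control mean over all 7. The null libraries thus differed from each other by 1.95-fold to 6.56-fold, more than the controls did (0.855-fold to 1.99-fold, replicate 1 over replicate 2). By the study's methods the pool of null replicate 1 was of fewer somites, and kit versions were 3 and 3.1 in null replicates 1 and 2. The part of stage or kit in this spread was not tested.

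In neural cells at E10.5 the genotypes overlapped for 5 of the 7 members. Hoxb4 was at 117 and 112 CPM in neural cells of the controls and at 111 and 194 CPM in the null libraries. Hoxd4 was at 163 and 86.1 CPM against 111 and 154 CPM, and Hoxa5 at 66.2 and 47.6 against 34.5 and 72.7 CPM. The libraries of the genotypes overlapped for these genes. Hoxb5 was at 21.9 and 32.4 CPM against 21.1 and 56.9 CPM and Hoxa4 at 52.7 and 31.2 against 45.4 and 54.5 CPM, again with overlap. For Hoxc4, with 52.8 and 40.4 CPM against 56.5 and 60.01 CPM, and for Hoxc5, with 24.9 and 13.4 against 25.3 and 32.2 CPM, both null libraries were above both controls. These 2 of 7 stand beside 25.1% of all genes. The log2 fold changes ran from -0.16 ± 0.35 (SE, Hoxa5) to 0.50 ± 0.33 (Hoxc5), with a median of 0.25 and adjusted p of 0.892 to 0.995 (edgeR over 15264 genes). The median was -0.09 without null replicate 2, 0.0026 without control replicate 2 and 0.48 without control replicate 1. Of neural cells, 4.87% and 22.1% also passed the Sox10 gate in the controls and 15.8% and 13.001% in the null libraries. Neuron markers in neural cells summed to 755 and 897 CPM in the controls and to 929 and 1635 CPM in the null libraries. Neural progenitor markers summed to 1573 and 842 against 981 and 860 CPM. The part of these markers' cells in the values was not tested. No member was called, and of all genes 0% were called by edgeR (796 had unadjusted p under 0.05) and 46 genes by DESeq2, none of them a member.

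**Figure D2:**
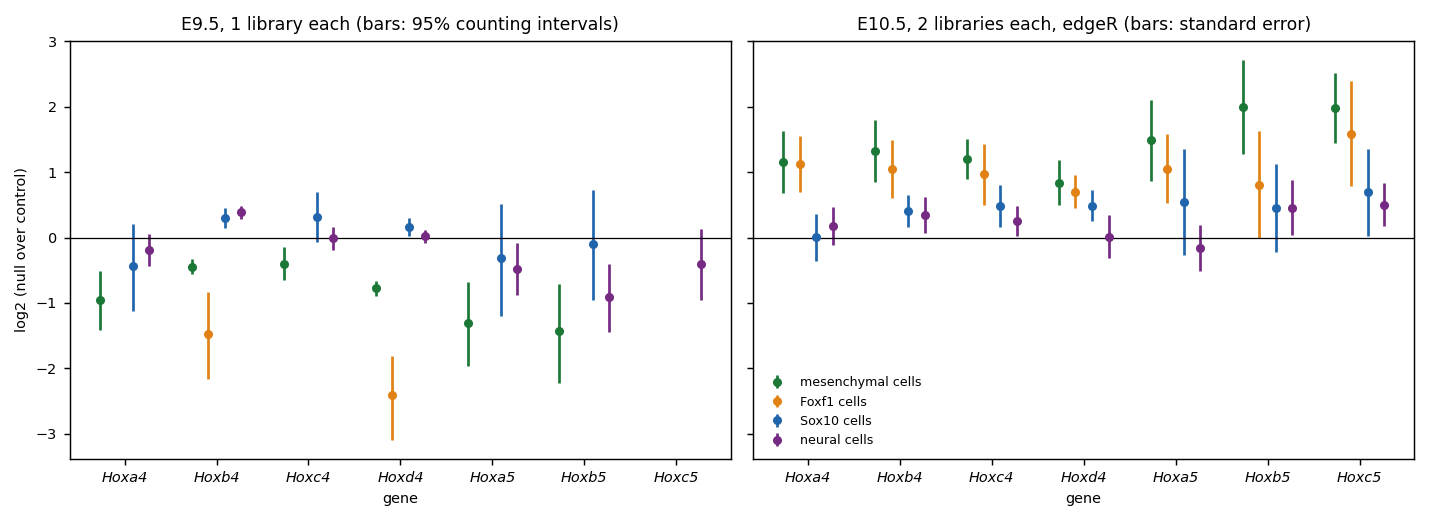
Null over control difference (log2, vertical axis) of each member in the 4 gates, at E9.5 as a ratio of single libraries with 95% counting intervals (left) and at E10.5 as the edgeR estimate with its standard error (right). Ratios resting on fewer than 50 UMIs are not drawn; mesenchymal values lie below 0 at E9.5 and between 0.84 and 2.00 at E10.5, where no adjusted p passed.

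The difference between the null effect in mesenchymal and in neural cells was tested directly, with cells of both gates left out. It was 0.68 ± 0.44 (log2, SE) for Hoxa4, 0.65 ± 0.35 for Hoxb4, 0.69 ± 0.46 for Hoxc4 and 0.67 ± 0.26 for Hoxd4. For group 5 it was 1.19 ± 0.55 for Hoxa5, 1.14 ± 0.54 for Hoxb5 and 1.05 ± 0.61 for Hoxc5. All 7 estimates were positive, but adjusted p lay between 0.531 and 0.736 (edgeR interaction over 16370 genes) and 0 of 7 were called, with 0.00611% of all genes called. Only Hoxd4 had an unadjusted p under 0.05 (0.0397), as did 1443 of the 16370 genes. DESeq2 called none of the 7 and 282 of all genes, and the median over all genes was -0.09. Without control replicate 2 Hoxd4 was called (1.19% of all genes) and the median over the members was 1.21, against 0.69 in all libraries. Without null replicate 1 Hoxb5 was called (0.705% of all genes) and the median was 1.49. Without null replicate 2 the median was 0.23, and without control replicate 1 it was 0.47.

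In the full gates the ratio of neural to mesenchymal CPM had a median over the 7 genes of 6.56 and 6.73 in control replicates 1 and 2, and of 4.59 and 2.15 in null replicates 1 and 2. Its range was 4.03 to 9.59 and 3.52 to 9.80 in the controls and 2.43 to 5.59 and 1.74 to 2.33 in the null libraries. Of mesenchymal cells, 8.29% and 1.20% in the controls and 17.1% and 23.9% in the null libraries count in both sums. In exclusive gates, which leave out all mesenchymal cells with Sox2 UMIs or in the Sox10 gate and all neural cells in the Sox10 gate or with UMIs of Prrx1 or Prrx2, the median ratio was 13.7 and 8.32 in the controls and 17.7 and 4.28 in the null libraries, so that null replicate 1 then had the highest median and the genotypes did not separate. At E9.5 the full gates gave the other order, with a median of 7.46 in the control and 10.4 in the null library, over members that include genes of few mesenchymal UMIs.

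In Foxf1 cells at E10.5 null replicate 2 was the highest library for all 7 members, at 2.16-fold to 6.04-fold the control mean. The share of all genes that were highest in that library was not computed. Null replicate 1 was at 1.16-fold to 1.35-fold for group 4 and at 0.384-fold to 0.926-fold for group 5, on the other side of the control mean. Hoxa4 was at 8.42 and 7.22 CPM in the controls and at 9.73 and 27.9 CPM in the null libraries, and Hoxd4 at 26.4 and 22.1 against 32.8 and 52.4 CPM. These 2 of 7 had both null libraries above both controls, beside 28.7% of all genes. Hoxb5 had 3.45 and 8.50 CPM against 2.30 and 21.3 CPM, so that null replicate 1 was the lowest of the 4 libraries and null replicate 2 the highest. Log2 fold changes were 0.70 to 1.59 with adjusted p of 0.388 to 0.708 (edgeR over 12784 genes). None of the 7 was called, and 3 had unadjusted p under 0.05. Of all genes 0% were called (1452 had unadjusted p under 0.05) while DESeq2 called 144, none a member. With no filter on low counts edgeR called 4 of the 7, with 584 of 19484 genes called. The median over the members was 1.05, and 0.06 in Foxf1 cells with a UMI of Hoxa3, Hoxb3 or Hoxd3. Without null replicate 1 all 7 were called higher, with 7.27% of all genes called. Without null replicate 2 Hoxb5 was called lower (log2 -1.42) and no other member was called, with 9.85% of all genes called. Neuron markers in Foxf1 cells summed to 26.1 and 35.1 CPM in the controls and to 48.7 and 395 CPM in the null libraries, and neural progenitor markers to 37.2 and 3.43 against 32.7 and 151 CPM. Their part in the difference was not tested. Against neural cells the difference in effect was -0.20 to 0.81 with adjusted p of 1 and 0% of genes called (613 had unadjusted p under 0.05, and DESeq2 called 26).

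In Sox10 cells at E10.5 the null replicates lay on opposite sides of the control mean for group 5. Replicate 1 was at 0.301-fold to 0.572-fold that mean and replicate 2 at 2.46-fold to 2.94-fold. Hoxb4 was at 58.2 and 75.0 CPM in the controls and 74.2 and 108 CPM in the null libraries, Hoxa4 at 21.6 and 21.7 against 13.1 and 31.9 CPM. Hoxa5 was at 6.75 and 21.1 CPM against 4.19 and 39.6 CPM, so both genotypes held a low replicate 1 and a high replicate 2. Both null libraries were above both controls for 1 of 7 members, Hoxd4 (54.6 and 71.6 CPM against 37.5 and 49.4), beside 24.9% of genes. The log2 fold changes were 0.00 to 0.69 (median 0.48), adjusted p was 0.532 to 0.999 (edgeR over 12948 genes), and 0 of 7 were called, with 0.0309% of genes called. No member had an unadjusted p under 0.05, as 1255 of the 12948 genes did, and DESeq2 called none of the 7 and 60 of all genes. Without null replicate 2 the median turned to -0.75. Neuron markers in Sox10 cells summed to 176 and 186 CPM in the controls and to 251 and 658 CPM in the null libraries, and their part in these values was not tested. Against neural cells the difference in effect was -0.62 to 0.76, with adjusted p of 0.980 to 1 and 0% of genes called (595 had unadjusted p under 0.05, and DESeq2 called 8). In that difference Hoxa5 was called higher without null replicate 1 (1.4% of all genes called), and Hoxc5 was called lower without null replicate 2 (0.775%).

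Part of the mesenchymal signal of the members came from cells that carried Sox10 or Sox2 UMIs as well. Of the UMIs of a member in the mesenchymal gate, 42.8% to 72.5% (the range over members) were in such cells in control replicate 1 and 7.10% to 18.8% in control replicate 2. In null replicates 1 and 2 the ranges were 45.6% to 90.3% and 64.1% to 82.2%. Over all genes these cells held 14.6% and 4.44% of the UMIs in the controls and 30.3% and 55.2% in the null libraries, so the members were concentrated in them in every E10.5 library. The 5 neuron markers, all of them counted, summed to 78.5 and 42.5 CPM in mesenchymal cells of the controls and to 140 and 832 CPM in the null libraries. The 5 neural progenitor markers gave 146 and 19.1 CPM against 227 and 356 CPM, and the 5 markers of migrating or glial crest 18.4 and 18.3 against 48.1 and 68.9 CPM, while the 6 mesenchymal markers were at 474 and 473 against 383 and 444 CPM. Of the crest markers 1 of 5, Foxd3, was called higher in the null mesenchymal cells (log2 4.23 ± 0.28 SE, adjusted p = 0.0128, edgeR), and the part of these cells in the members' difference was not tested. Blood markers stood at 0.108 and 0.962 CPM in the controls and at 0.0503 and 9.40 CPM in null replicates 1 and 2. The other gates of null replicate 2 had similar levels, with 10.2, 9.81 and 10.2 CPM in Foxf1, Sox10 and neural cells. In the same order null replicate 1 had 0.0676, 0.269 and 0.115 CPM, control replicate 1 had 0, 0.397 and 0.151 CPM, and control replicate 2 had 2.43, 1.09 and 0.787 CPM.

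When mesenchymal cells with Sox2 UMIs or in the Sox10 gate were left out, all 7 members were lower in all 4 libraries and null replicate 1 changed its place. Hoxb4 was then at 12.4 and 16.9 CPM in the controls and 11.2 and 56.3 CPM in the null libraries. Hoxa5 was at 3.29 and 4.45 against 1.97 and 18.4 CPM, and Hoxd4 at 27.1 and 23.8 against 35.5 and 61.5 CPM. Null replicate 1 was below both controls for 5 of 7 members (Hoxa4, Hoxb4, Hoxa5, Hoxb5, Hoxc5), within them for Hoxc4 and above them for Hoxd4. Null replicate 2 was the highest library for all 7. The shares of all genes with these places of null replicates 1 and 2 were not computed. Both null libraries were thus above both controls for 1 of 7 members, Hoxd4, beside 32.4% of all genes in these cells, in place of 6 of 7 in the full gate. The median log2 fold change of the 7 members was 0.98 in these cells. It was 0.52 with the gates set after each cell was thinned to 5000 UMIs, and 0.73 with at least 4 UMIs of the gate genes. As a difference from neural cells, the medians were 0.30, -0.08 and 0.18. No member was called in any of these settings. In mesenchymal cells 6 of 15208, 14 of 15227 and 19 of 15424 genes were called, in the same order. In each difference from neural cells 1 gene was called. The part of cells with neural markers in the difference was not tested further.

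**Figure D3:**
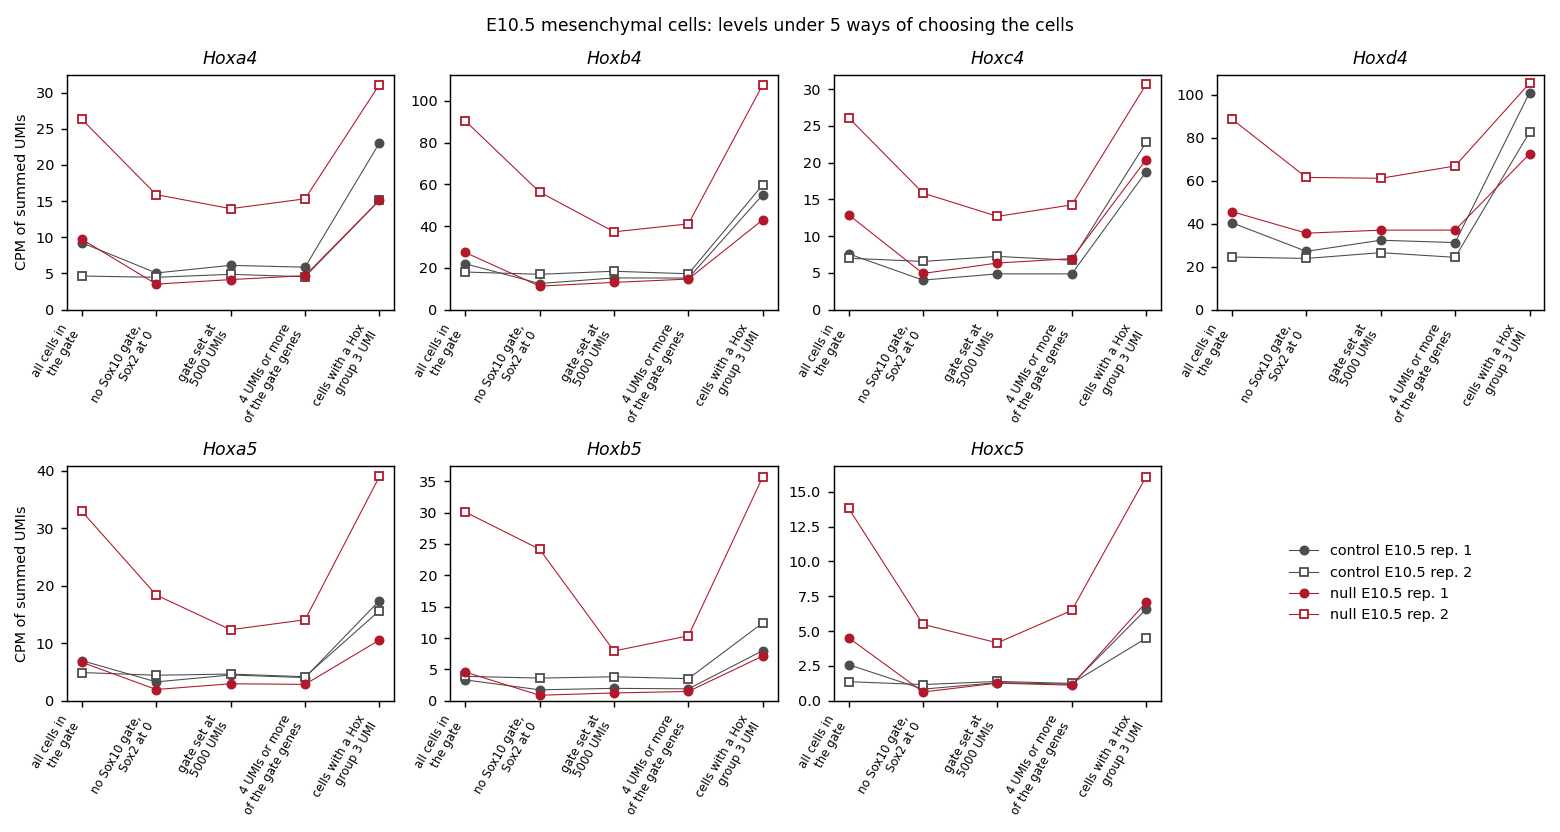
Level of each member (CPM, vertical axis, scaled per gene) in mesenchymal cells of the 4 E10.5 libraries under 5 ways of choosing the cells (horizontal axis); lines join the values of a library and imply no order. Null replicate 2 (open red squares) is the highest library in all 5 choices, and the share of all genes highest there was not computed. Null replicate 1 (filled red circles) lies below both controls for Hoxb4 and Hoxa5 in every choice but the full gate. For Hoxa5 it lies within the controls in the full gate.

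At E9.5 such cells held 27.4% of the mesenchymal UMIs of all genes in the control and 23.4% in the null library. Of the mesenchymal UMIs of 6 members they held 50.0% to 73.0% in the control and 70.5% to 96.9% in the null library. Hoxc5 is outside these ranges because it had 10 UMIs in each library, of which 4 and 0 lay outside such cells. Without them Hoxb4 was at 5.36 CPM in the control and 2.02 CPM in the null library, and Hoxd4 at 8.01 and 2.86 CPM. The null levels stayed the lower ones.

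By cells counted rather than UMIs, the 4 libraries at E10.5 had the order neural, Sox10, mesenchymal and Foxf1 cells. By the summed CPM of the 7 genes Foxf1 cells of control replicate 2, at 77.5, were above its mesenchymal cells, at 64.2. After each cell was thinned to 5000 UMIs, 60.8% and 52.1% of neural cells had a UMI of at least 1 of the 7 genes in control replicates 1 and 2 at E10.5, and 57.6% and 72.6% in null replicates 1 and 2. In mesenchymal cells these shares were 17.2% and 13.4% in the controls and 26.1% and 50.0% in the null libraries. Both null libraries were thus higher in mesenchymal cells, and the genotypes overlapped in neural cells. Sox10 cells had 30.9% and 45.1% against 43.4% and 60.3%, and Foxf1 cells 10.6% and 12.5% against 23.5% and 41.2%. At E9.5 the share was 7.77% in control and 5.91% in null mesenchymal cells, 28.4% and 35.2% in neural cells and 5.96% and 1.46% in Foxf1 cells. At E8.5 it was 0.433% in mesenchymal and 0.965% in neural cells.

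A part of the cells held several members. At least 3 of the 7 were detected in 28.1% and 18.7% of control and 23.8% and 37.0% of null neural cells at E10.5. In mesenchymal cells these shares were 4.25% and 2.53% against 4.98% and 14.6%. For single genes, Hoxd4 was detected in 12.2% and 8.29% of control and 16.8% and 29.6% of null mesenchymal cells (20.7%, 14.6%, 35.6% and 55.7% without thinning). Hoxb4 was detected in 7.93% and 6.59% against 11.4% and 25.7% (16.2%, 12.5%, 24.7% and 49.4% without thinning). In cells that were positive for Hoxb4, the mean number of its UMIs after thinning was 1.53 and 1.39 in the controls and 1.44 and 1.75 in the null libraries. At this depth that mean is close to its lower limit of 1. Background was measured in cells with Otx2, a forebrain and midbrain factor. At E8.5, where the head was kept, such cells should lack these genes. The 1322 such cells at E8.5 (median 20378 UMIs) had Hoxd4 in 0.0758% after thinning and the other 6 members in 0%, which allows up to 0.227%. From E9.5 on the head was removed, so it is not known that Otx2 cells of those stages lack these genes. The Otx2 cells at E10.5 had more. Hoxb4 was detected in 1.92% of 104 and 4.14% of 145 such cells of control replicates 1 and 2, and in 2.80% of 214 and 11.5% of 122 cells of null replicates 1 and 2 (median depths 22808, 15388.5, 23024 and 25542.5 UMIs). Hoxd4 was detected in 0.962% and 4.14% against 1.40% and 7.38%. Null replicate 2 thus had the highest share in Otx2 cells as well as in mesenchymal cells, where each share was above that of the Otx2 cells of its library. Whether these counts in E10.5 Otx2 cells are background or expression was not tested, nor was the part of background in the mesenchymal shares. At E9.5 there were 35 and 79 thinned Otx2 cells, with 1 positive for Hoxb4 and none for the other members.

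**Figure D4:**
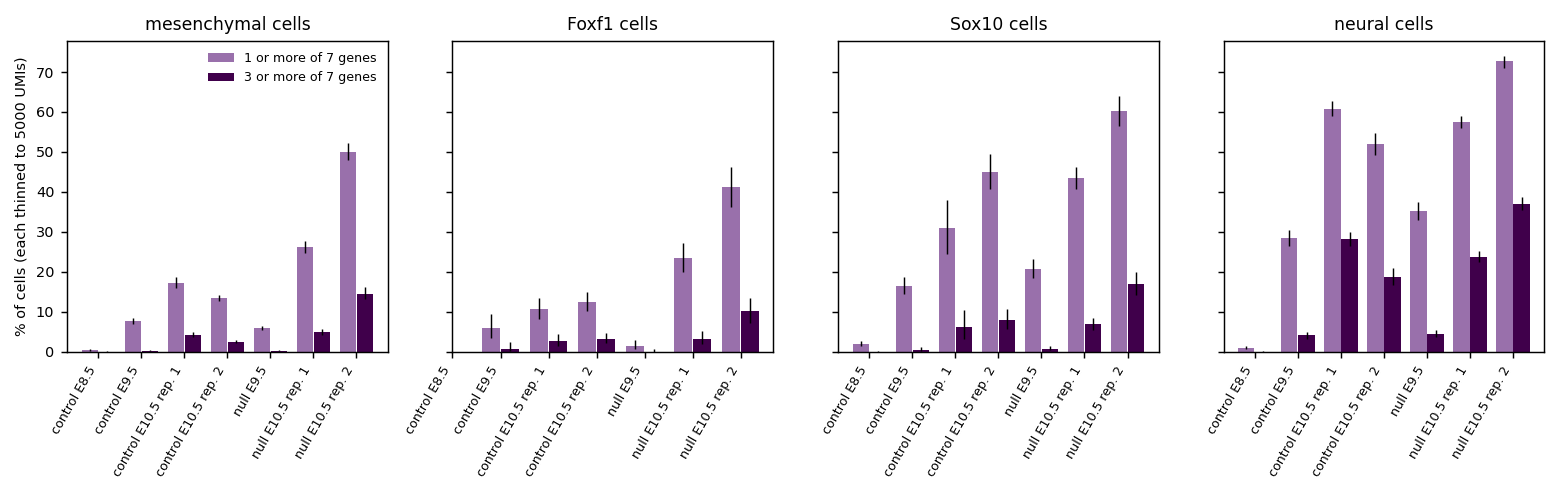
Percent of cells of each gate (vertical axis, each cell thinned to 5000 UMIs) with a UMI of at least 1 (light bars) and of at least 3 (dark bars) of the 7 genes, per library. Bars start at 0 and the lines are exact 95% binomial intervals (counting error only); the mesenchymal share is 50.0% in null replicate 2 at E10.5 against 17.2% and 13.4% in the controls.

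Hox group 3 genes are expressed in crest of the third and more caudal arches and in the hindbrain, and more mesenchymal cells had a UMI of them in the null libraries at E10.5. After thinning, 19.6% and 14.5% of control and 38.7% and 48.3% of null mesenchymal cells had a UMI of Hoxa3, Hoxb3 or Hoxd3, while at E9.5 the shares were 8.94% and 8.29%. Neural cells at E10.5 had such a UMI in 54.4% to 65.9%, so it does not set arch cells apart from neural cells. Among these group 3 positive cells, 52.2% and 49.9% had a member in the controls and 46.2% and 65.0% in the null libraries. Among group 3 negative cells the shares were 8.73% and 7.23% against 13.4% and 36.1%. The comparison was also limited to mesenchymal cells with such a UMI before thinning, which is a larger set than the thinned shares describe. It held 1177 of 3256 and 1669 of 6568 cells in the controls, and 1956 of 3179 and 1775 of 2200 in the null libraries. In this set Hoxd4 was at 101 and 82.6 CPM in the controls and 72.5 and 105 CPM in the null libraries. Hoxb4 was at 55.0 and 59.8 against 43.0 and 108 CPM. Null replicate 1 was then the lowest library for both genes. The median log2 fold change of the 7 was 0.19 in these cells and the log2 fold change of Hoxd4 turned to -0.23. No member was called, against 4 of 14759 genes. As a difference from neural cells the median was -0.19.

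Other Hox genes and Hox partners were set beside the members. In mesenchymal cells at E10.5 the median log2 fold change was 1.5 over 8 tested genes of groups 1 to 3 and 3.88 over 4 tested genes of groups 6 to 13. In neural cells these medians were 0.35 over 8 genes and 0.82 over 7. The files hold 24 genes of groups 6 to 13, and the filter on low counts dropped the others. The medians of that list thus cover different sets of genes in the 2 gates. A gene can pass that filter by its counts in either genotype alone, so the filter can favour genes that are high in the null libraries. The medians of groups 6 to 13 therefore do not show how that list as a whole differed between genotypes. The 9 Hox cofactors, which are Pbx, Meis and Pknox genes whose proteins bind DNA with Hox proteins, had medians of 0.02 and 0.06 in mesenchymal and neural cells. The 15 tested genes of retinoic acid signalling and of Cdx and hindbrain regulators had medians of 0.55 and 0.32, and 6 noncoding genes of the Hox clusters 1.31 and 0.20. No gene of any of these lists was called in mesenchymal or neural cells or in their difference, as with the members. In the control level of neural over mesenchymal cells, 7 of 8 genes of groups 1 to 3 were called higher. So were 7 of 8 of groups 6 to 13, 5 of 6 noncoding genes and 15.4% of all genes tested. Of the cofactors 3 were higher and 2 lower of 9, and of the regulators 6 higher and 7 lower of 15 (32.4% of all genes were called in either direction).

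Outside the members, the genes whose level followed the summed members most closely over the 28 sums of 7 libraries and 4 gates were Hoxb3 (Pearson r = 0.97), Gm15050 (0.95), Sord, Podxl2 and Prkar2a (0.94 each), of 8881 genes compared on log2(CPM + 1). These sums share libraries, depth and cells, and no test was made. They include the sum of the 13 Foxf1 cells at E8.5, in which the members were at 0 CPM. Within the E10.5 libraries alone (16 sums, 8775 genes) the closest were Arvcf (0.98), Tppp3 (0.98), Scg3 (0.97), Nav2 (0.97) and Frmd4b (0.97), with 0 of 5 in common with the first list. By single member over the 28 sums, Hoxb3 was the closest gene to Hoxd4 (0.98) and Hoxaas3, an antisense RNA of the A cluster, the closest to Hoxa5 (0.98). For the other members the closest gene lay outside the Hox clusters. It was Twf1 for Hoxa4 (0.95), Tppp3 for Hoxb4 (0.95) and Hoxc4 (0.98), and Klc1 for Hoxb5 (0.96) and Hoxc5 (0.97). Within the E10.5 libraries alone the closest gene to Hoxd4 was Mfng (0.98), and Hoxaas3 stayed the closest to Hoxa5 (0.97).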

How the data were processed

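The authors sorted the cells, made 10x Genomics 3′ libraries (kit versions 2, 3 and 3.1) and deposited UMI counts per gene and cell from Cell Ranger 6.0.1 on mm10, without normalization. Those counts were used here as deposited. Barcodes were kept when they had 1000 genes or more and no more than 10% of their UMIs from mitochondrial genes, and the highest Scrublet scores were removed (0.8% per 1000 barcodes). UMIs were summed per library and gate, and levels are CPM of these sums. At E10.5, 2 control and 2 null libraries were compared with edgeR 4.0.16 (R 4.3.3; TMM, filterByExpr, glmQLFit, glmQLFTest), with Benjamini-Hochberg adjusted p under 0.05 as the call. Differences between gates were tested as an interaction with the library as a block. DESeq2 1.42.0 was an alternative. The edgeR steps were tested on simulated data. Of simulated 2-fold changes, 76% were recovered in mesenchymal cells and 25.5% in the difference of mesenchymal from neural cells. For 4-fold changes these shares were 100% and 93.5%. The simulated counts had the same fixed dispersion for every gene. The spread between the null replicates was not modelled, so these shares do not give the power of the tests on these data. E9.5 and the stages have 1 library per genotype and no test; a gene counted as lower past 1.5-fold with at least 50 UMIs in the pair. Shares come from cells thinned to 5000 UMIs. Intervals and limits for a count of 0 (3 counts) cover counting error only. All 7 members are named throughout, and other list genes only where called. Members, gates and lists were chosen with earlier results of these data known.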

Additional observations from a re-analysis of the deposited data

Results flagged for a closer look

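In mesenchymal cells the null effect had opposite signs at E9.5 and E10.5 for 5 members, with every library on its own side. These members were flagged by their own values, and the share of all genes with such a change of sign was not computed. At E10.5 alone both null libraries were above both controls for 36.8% of all genes in mesenchymal and 28.7% in Foxf1 cells. The E10.5 log2 fold change minus the E9.5 log2 ratio was 2.11 for Hoxa4, 1.77 for Hoxb4, 1.60 for Hoxc4, 1.62 for Hoxd4 and 3.43 for Hoxb5. In Foxf1 cells the same held for Hoxd4, at 3.12. Without mesenchymal cells that had Sox2 UMIs or passed the Sox10 gate, null replicate 1 at E10.5 was below both controls for Hoxa4, Hoxb4 and Hoxb5 and within them for Hoxc4, so that every library kept its side for Hoxd4 alone of the 5. At E9.5 the sign also differed between classes of the same pair of libraries. For Hoxb4 the null effect in Sox10 cells exceeded that in mesenchymal cells by 0.74 and that in Foxf1 cells by 1.78, and in neural cells it exceeded those by 0.83 and 1.87. For Hoxd4 the Sox10 effect exceeded the mesenchymal effect by 0.94 and the Foxf1 effect by 2.58. None of these differences was tested, since E9.5 has 1 library per genotype. The neuron markers summed to 23.3 and 20.2 CPM in control and null mesenchymal cells at E9.5, and to 78.5 and 42.5 against 140 and 832 CPM at E10.5; their part in the change of sign was not tested.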

How the results depend on the processing

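The tests rest on 2 libraries per genotype, and E9.5 and E8.5 have 1 and no test. Members called were those of the report except as follows. In mesenchymal cells DESeq2 called 2 and no filter on low counts 7, in Foxf1 cells no filter called 4 (584 of 19484 genes). The replicate numbers are shared in name only (correlation of same-numbered deviations 0.048 in mesenchymal, 0.198 in Foxf1, 0.201 in Sox10 and 0.226 in neural cells, 2 pairs); with a replicate block 4 members were called in mesenchymal minus neural (Hoxc4, Hoxa5, Hoxb5, Hoxc5; 5.15% of all genes) and 1 in Sox10 minus neural cells (Hoxa5; 1.66%), and Hoxa4 in Sox10 cells turned to -0.091. Leaving out a library gave 0 to 5 members in mesenchymal, 0 to 7 in Foxf1, 0 to 1 in mesenchymal minus neural, 0 to 1 in Sox10 minus neural cells and 4 to 7 for the control level, which called 6 in group 3 cells. Of all genes, 4 to 1438 were called in mesenchymal cells over all settings, libraries left out included, 0 to 1297 in Foxf1, 0 to 339 in Sox10 and 0 to 163 in neural cells, and 0 to 843, 0 to 172 and 0 to 228 for the 3 differences from neural cells, against 16, 0, 4, 0, 1, 0 and 0. At E9.5 in mesenchymal cells 5 of 5 members with enough UMIs were lower past 1.5-fold with gates at 5000 UMIs and with stricter gates (Hoxb4 and Hoxc4 among them; 532 of 13546 and 547 of 13696 genes), 3 of 3 with exclusive gates (505 of 13343) and 3 of 6 in group 3 cells (378 of 11763), where Hoxd4 was at 0.713-fold. In Sox10 cells 2 members (exclusive gates; 315 of 8879 genes) and 1 (gates at 5000 UMIs; 424 of 8601) were more than 1.5-fold higher and 2 (group 3 cells; 338 of 10386) lower in the null, and in neural cells 2 (exclusive; 412 of 11121) and 3 (group 3 cells; 369 of 11092) lower; in Foxf1 cells no member had enough UMIs with gates at 5000 UMIs or stricter gates. The order of stages held for 3 members in Sox10 cells with exclusive gates, 6 with gates at 5000 UMIs and 5 in group 3 cells, and for 6 in mesenchymal group 3 cells, and with E10.5 libraries alone 0 of the closest genes were shared. The causes were not tested.

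Signs turned as follows (log2). In cells with a group 3 UMI: mesenchymal Hoxd4 -0.23; Foxf1 Hoxd4 -0.22 and Hoxb5 -0.23; Sox10 Hoxa4 -0.40; neural Hoxd4 -0.076. There the mesenchymal minus neural values were -0.22 (Hoxa4), -0.26 (Hoxb4), -0.19 (Hoxc4) and -0.24 (Hoxd4), Foxf1 minus neural -0.11 (Hoxa4), -0.35 (Hoxb4), -0.37 (Hoxc4), -0.29 (Hoxd4) and -0.53 (Hoxc5), and Sox10 minus neural -0.21 (Hoxa4), -0.20 (Hoxb4) and -0.073 (Hoxc4). With gates at 5000 UMIs, Sox10 Hoxa4 was -0.092, mesenchymal minus neural -0.079 (Hoxa4), -0.21 (Hoxb4), -0.41 (Hoxb5) and -0.23 (Hoxc5), Foxf1 minus neural 0.10 (Hoxb5), and Sox10 minus neural -0.72 (Hoxa4), -0.13 (Hoxb4), -0.096 (Hoxa5) and -0.47 (Hoxb5). Stricter gates gave -0.11 for Sox10 Hoxa4, -0.0053 for neural Hoxd4, -0.0063 for mesenchymal minus neural Hoxb4, and -0.19 and -0.047 for Sox10 minus neural Hoxa4 and Hoxb5. Sox10 Hoxa4 and neural Hoxd4, both near 0, were -0.0068 and -0.011 with DESeq2, -0.0086 and -0.011 with its size factors, -0.020 and -0.0059 with no filter, and -0.19 and -0.013 with a minimum of 200 genes and a maximum of 5% mitochondrial UMIs, where Sox10 minus neural Hoxa4 was -0.021. For Hoxc5 in Foxf1 cells, gates at 5000 UMIs left too few UMIs for the fit and gave no value. Foxf1 minus neural was 0.045 for Hoxb5 with doublets kept and -0.011 for Hoxc4 with exclusive gates.

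Without 1 library the ranges that crossed 0 were, in Foxf1 cells, -0.15 to 1.77 (Hoxa5), -1.42 to 1.71 (Hoxb5) and -0.42 to 2.48 (Hoxc5), and in Sox10 cells -0.75 to 0.50 (Hoxa4), -1.81 to 1.58 (Hoxa5), -1.18 to 1.53 (Hoxb5) and -0.90 to 1.61 (Hoxc5). In neural cells they were -0.22 to 0.64 (Hoxa4), -0.77 to 0.26 (Hoxa5), -0.091 to 0.68 (Hoxb4), -0.39 to 0.99 (Hoxb5) and -0.44 to 0.57 (Hoxd4). For Foxf1 minus neural they were -1.64 to 0.59 (Hoxb5), -0.30 to 1.10 (Hoxc4) and -1.24 to 1.30 (Hoxc5), and for Sox10 minus neural -0.33 to 0.70 (Hoxa4), -0.58 to 1.71 (Hoxa5), -0.037 to 0.65 (Hoxb4), -0.36 to 1.49 (Hoxb5), -0.090 to 0.61 (Hoxc4) and -2.10 to 1.03 (Hoxc5). In mesenchymal cells no member crossed 0 when a library was left out.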
